A study of Mus musculus with 12 samples.

Results

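The 10 genes described here encode transcription factors and cofactors of red cell and platelet development: Gata1, Gata2, Tal1, Klf1, Gfi1b, Nfe2, Zfpm1, Lmo2, Ldb1 and Bcl11a. They were chosen by symbol from the 55367 mouse genes of the count table, and all 10 were among the 13384 genes with enough counts to be tested. Whole blood was drawn from CB17-SCID mice, an immunodeficient strain, that all carried a xenograft of the human bladder cancer line HT1376. Every group was dosed once a day by mouth for 11 days. There were 4 groups of 3 libraries: vehicle, and CPI0209 at 35 mpk (mg per kg) collected at 1 h, 6 h or 24 h after the final dose. CPI0209 (tulmimetostat) inhibits EZH2 and EZH1, the enzymes of Polycomb repressive complex 2 that methylate histone H3. When the vehicle blood was drawn, how old the mice were and whether each library is a separate animal is not stated in the labels, so p-values measure only the spread between these libraries.

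GATA1 is the main activator of red cell and platelet genes, and it takes over at many sites from GATA2, which acts earlier, in stem and progenitor cells and in mast cells. Both GATA factors work in a complex in which TAL1 binds DNA, LMO2 bridges the proteins and LDB1 joins complexes at distant sites, while ZFPM1 (FOG1) is the cofactor that GATA1 binds directly. KLF1 activates adult globin and membrane genes, NFE2 activates globin and platelet genes, GFI1B represses genes during maturation, and BCL11A represses embryonic and fetal globin genes. Mature red cells have no nucleus, so red cell transcripts in blood are those carried by reticulocytes, the youngest red cells in circulation, and by any nucleated precursors. Platelets are a separate source of transcripts of several of these factors.

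Library totals ran from 6496573 to 9978215 counts. Levels are given as CPM, counts divided by library size, with the sizes scaled by TMM, a method that assumes that most genes do not change. Scaling factors in vehicle ran from 1.03 to 1.12, while those of the 6 h libraries were 0.766, 0.812 and 0.781, which raises CPM at 6 h and lowers them in vehicle. Across 28 red cell genes, such as those of haem synthesis, globins and the membrane skeleton, the mean log2 CPM was 7.59 to 7.95 in vehicle, 8.24 to 8.51 at 1 h and 9.22 to 9.28 at 6 h. The 24 h libraries stood apart from each other, at 7.22, 7.73 and 8.71 in replicates 1, 2 and 3. Each gene counts equally in this mean, although their levels differ widely. In vehicle, Alas2 of haem synthesis had 33698 ± 2418 CPM. The globins had far less there: Hba-a1 774 ± 351, Hba-a2 255 ± 255, Hbb-bs 596 ± 218 and Hbb-bt 11.2 ± 4.39 CPM. Why globin counts were this low was not tested. In whole blood, more reticulocytes and more RNA in each of them cannot be told apart.

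At 6 h after the last dose, 6 of the 10 factors were higher than in vehicle and none was lower. Gata1 led with a 3.30-fold rise, followed by Lmo2 at 2.04-fold, Nfe2 at 1.87-fold, Gata2 at 1.84-fold, Gfi1b at 1.78-fold and Tal1 at 1.65-fold. Over all genes tested, 4.06% were called higher in this comparison, and 4.84% in either direction. An unadjusted p under 0.05 was found for 7 of the 10 factors and for 19.6% of all genes. The median log2 fold change of the 10 factors was 0.78, against -0.04 for the 13384 genes. Calls are those of edgeR's quasi-likelihood test with an adjusted p under 0.05 (Benjamini-Hochberg over all genes tested), here and below.

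Gata1 stood at 46.8, 57.8 and 59.0 CPM in the 3 vehicle libraries and at 194, 172 and 176 CPM at 6 h. Its mean rose from 54.6 ± 6.72 to 180.4 ± 11.5 CPM (SD, n = 3), a log2 fold change of 1.72 (SE 0.20, adjusted p = 0.00044). The lowest 6 h library was far above the highest vehicle library. Among the 21 other ways of fitting the data, which included leaving out each library, Gata1 passed in all 21, with log2 fold changes of 1.27 to 1.77.

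Lmo2, the bridging protein, stood at 98.4, 105 and 116 CPM in vehicle and 229, 197 and 225 CPM at 6 h (log2 fold change 1.03, SE 0.27, adjusted p = 0.047). Nfe2 stood at 142, 156 and 165 CPM in vehicle and 297, 278 and 292 CPM at 6 h (0.91, SE 0.19, adjusted p = 0.014). The 3 libraries of each time were close together for both genes, and no 6 h library overlapped vehicle. Tal1, the DNA-binding partner, went from 79.4, 86.7 and 89.7 CPM to 149.9, 143 and 129.6 CPM (0.72, SE 0.17, adjusted p = 0.024). Gfi1b, the repressor, went from 22.5, 20.9 and 20.9 CPM to 40.8, 38.4 and 35.2 CPM (0.83, SE 0.20, adjusted p = 0.028). For Tal1 and Gfi1b as well, the lowest 6 h value was above the highest vehicle value. Gata2 went from 27.0, 24.1 and 22.3 CPM to 61.1, 42.1 and 32.0 CPM (0.88, SE 0.23, adjusted p = 0.044). The 6 h values of Gata2 were spread widely, with replicate 1 far above replicate 3, but all 3 exceeded vehicle. The same 6 genes were those whose groups did not overlap, a pattern that 15.8% of all tested genes showed in the higher direction.

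The count of 6 depended on the libraries kept and on the scaling. It was 1 without vehicle replicate 1 or 2 or 6 h replicate 1, 2 without vehicle replicate 3 or 6 h replicate 2, and 3 without 1 h replicate 1. Scaled by library totals alone, only Gata1 passed (log2 fold change 1.27), with values of 0.57 for Lmo2, 0.45 for Nfe2, 0.41 for Gata2, 0.37 for Gfi1b and 0.27 for Tal1. That scaling put the median of all genes at -0.50 and that of the 10 factors at 0.32, and it called 344 genes higher and 1488 lower, where TMM gave 543 and 105.

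**Figure D1:**
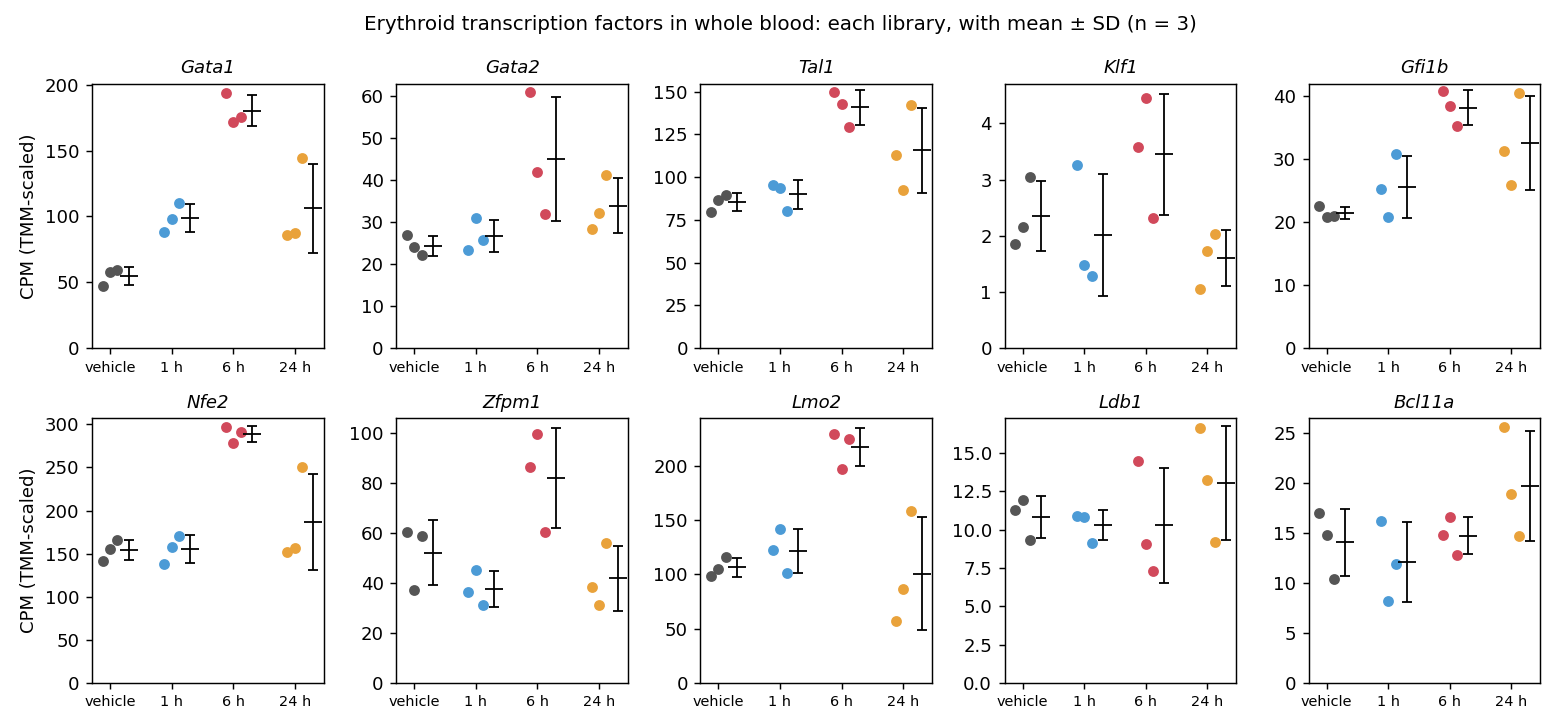
CPM of each factor (vertical axis, starting at 0) in the 12 libraries by group, with each library as a point and the group mean ± SD (n = 3) as a bar beside it. Gata1, Tal1, Gfi1b, Nfe2, Lmo2 and Gata2 have all 3 of their 6 h points above every vehicle point, and the 24 h points are spread more widely than those of the other groups for Gata1, Nfe2 and Lmo2.

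The promoters of these genes are shown because the factors are known to bind one another's regulatory sequences. RefSeq promoters (GRCm38.p6) were matched for 8 of the 10 genes with 12 start sites, and Nfe2 and Lmo2 had no entry. The 250 bases before each start site were searched on both strands for AGATAA or TGATAA (bound by GATA factors), CCNCNCCC (bound by KLF factors, which also fits many GC-rich stretches), CAGNTG (bound by TAL1 dimers) and TGAGTCA (the core bound by NF-E2, which also fits AP-1). Capitals mark the matched letters, and each sequence runs 5′ to 3′ on the gene's strand. Gata1, the factor with the largest change, is followed by Gfi1b and Tal1, which were called higher and hold GATA letters, and by Ldb1, which holds both GATA and TAL1 letters and was not called. The Gata1 and Ldb1 windows lie inside the annotated genes but outside any GENCODE M21 exon, and those of Gfi1b and Tal1 lie just before the gene.
Gata1, chrX:7967911-7968160, minus strand: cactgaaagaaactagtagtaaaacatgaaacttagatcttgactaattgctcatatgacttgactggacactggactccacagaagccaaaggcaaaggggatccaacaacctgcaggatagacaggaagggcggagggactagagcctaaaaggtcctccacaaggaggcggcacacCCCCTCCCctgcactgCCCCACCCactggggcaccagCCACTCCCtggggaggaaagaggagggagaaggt
Gfi1b, chr2:28621983-28622232, minus strand: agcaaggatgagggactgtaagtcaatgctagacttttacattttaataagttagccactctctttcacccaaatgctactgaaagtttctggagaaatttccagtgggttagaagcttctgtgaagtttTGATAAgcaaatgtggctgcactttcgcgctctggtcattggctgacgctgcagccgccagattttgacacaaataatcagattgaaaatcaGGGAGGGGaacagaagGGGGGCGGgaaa
Tal1, the first start site, chr4:115056176-115056425, plus strand: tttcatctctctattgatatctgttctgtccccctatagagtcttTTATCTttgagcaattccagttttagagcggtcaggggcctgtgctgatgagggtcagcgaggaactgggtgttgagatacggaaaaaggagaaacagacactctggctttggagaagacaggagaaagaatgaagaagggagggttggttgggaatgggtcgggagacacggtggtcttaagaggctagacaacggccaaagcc
Ldb1, the third start site, chr19:46037071-46037320, minus strand: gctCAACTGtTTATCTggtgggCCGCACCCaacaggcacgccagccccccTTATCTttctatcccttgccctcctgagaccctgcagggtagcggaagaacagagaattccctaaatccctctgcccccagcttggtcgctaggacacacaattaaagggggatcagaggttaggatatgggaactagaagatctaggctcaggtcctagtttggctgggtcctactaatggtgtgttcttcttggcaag

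With positions counted from the start site, Gata1 had 3 CCNCNCCC matches, which began at -71, -55 and -34, and no GATA letters. Gfi1b had TGATAA at -120 to -115 and, on the opposite strand, CCNCNCCC matches at -28 to -21 and -12 to -5. Tal1 had AGATAA on the opposite strand at -205 to -200 of its first start, and its second start site had 4 CCNCNCCC matches, 3 of which overlapped. Klf1 had TGATAA on the opposite strand at -80 to -75 and CAGNTG at -59 to -54, and the end of its window overlaps the first GENCODE exon. The third start site of Ldb1 had AGATAA matches at -240 to -235 and -200 to -195, a CAGNTG match at -247 to -242 and a CCNCNCCC match. The other windows, of Gata2, Zfpm1, Bcl11a and the remaining start sites of Ldb1, held CCNCNCCC matches only. Of all 32851 promoters of this length, 16.6% held AGATAA or TGATAA, 45.9% CCNCNCCC, 44.8% CAGNTG and 4.46% TGAGTCA, so single matches are common. None of the 12 windows held TGAGTCA.

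At 1 h, none of the 10 factors passed the test, where 0.194% of all genes were called in either direction, and 1 had an unadjusted p under 0.05, beside 6.99% of all genes. That gene was Gata1, at 88.2, 98.4 and 109.95 CPM (98.9 ± 10.9, n = 3). All 3 libraries were above vehicle, as in 8.92% of all genes, and the log2 fold change was 0.86 (SE 0.20, adjusted p = 0.12). The wide spread of the 24 h libraries enters this test, because all groups share an estimate of the spread. Without the 24 h libraries Gata1 passed at 1 h with a log2 fold change of 0.88 (adjusted p = 0.0032), an alternative chosen after seeing the data. It also passed without 24 h replicate 1 (adjusted p = 0.037) or 24 h replicate 3 (adjusted p = 0.0064), and in DESeq2 (adjusted p = 0.00810). Over the 21 alternatives its adjusted p at 1 h ran from 0.0032 to 0.41, with 7 of them past the threshold. The other 9 factors had log2 fold changes from -0.47 (Zfpm1) to 0.25 (Gfi1b) at 1 h, with vehicle and treated libraries overlapping for each. The median of the 10 was 0.04, beside -0.02 for all genes.

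At 24 h, none of the 10 factors passed either, with 0.105% of all genes called, and 3 had an unadjusted p under 0.05 (Gata1, Tal1 and Gfi1b), beside 8.37% of all genes. Gata1 stood at 86.2, 87.3 and 145 CPM (106 ± 33.5, n = 3), a log2 fold change of 0.96 (SE 0.20, adjusted p = 0.13). All 3 values were above the vehicle range. It passed without 24 h replicate 1 (1.09, adjusted p = 0.036) and in DESeq2 (adjusted p = 0.0038), and over 20 alternatives the adjusted p ran from 0.0013 to 0.72. Groups did not overlap for 4 factors, Gata1, Gata2, Tal1 and Gfi1b, all with treated libraries above vehicle, a pattern seen in 6.34% of all genes. Gfi1b stood at 31.2, 25.8 and 40.5 CPM (0.60, SE 0.20), Tal1 at 113, 92.3 and 142 CPM (0.44, SE 0.17) and Gata2 at 28.4, 32.3 and 41.3 CPM (0.47, SE 0.23). In each of these the library with the highest red cell level, replicate 3, was the highest. The median over the 10 factors was 0.36, beside 0.01 for all genes.

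Averaged over the 3 collection times, Gata1 alone passed, with 0.934% of all genes called in either direction and 0.882% higher. Its 9 treated libraries, from 86.2 to 194 CPM, were all above its 3 vehicle libraries, as in 1.3% of all genes, and the log2 fold change was 1.18 (SE 0.17, adjusted p = 0.0055). Without vehicle replicate 1 or 2 the call was lost (adjusted p = 0.053 and 0.055). Of the other factors, Gfi1b (0.56, SE 0.17), Gata2 (0.49, SE 0.19), Tal1 (0.41, SE 0.14) and Nfe2 (0.40, SE 0.16) had unadjusted p under 0.05, as did 10.5% of all genes, with adjusted p of 0.17 to 0.36. The comparisons of each time with vehicle share the same 3 vehicle libraries, so a deviation there enters every one of them.

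**Figure D2:**
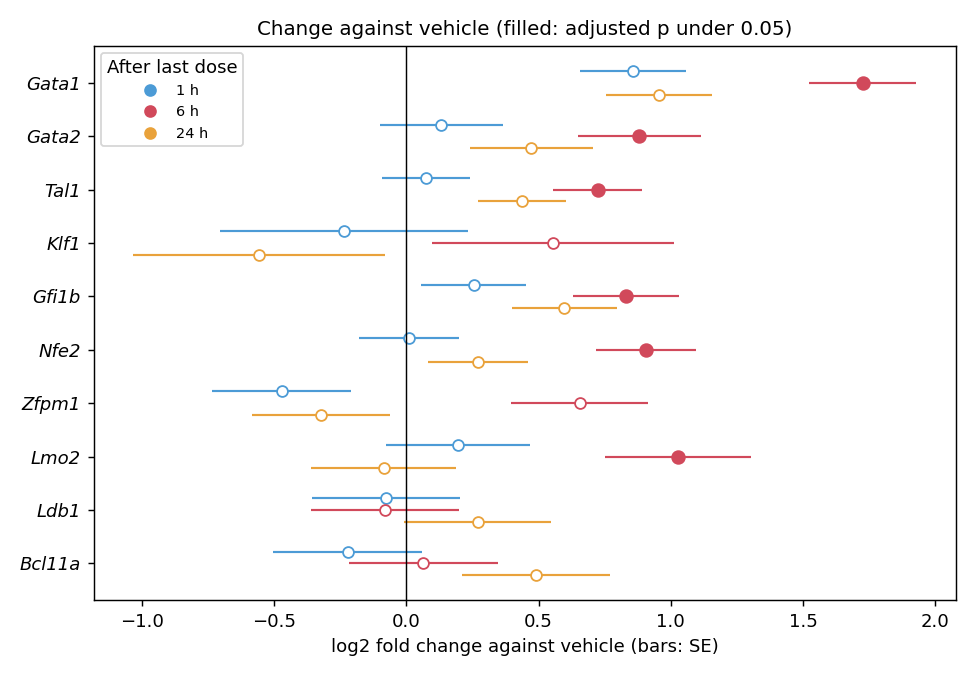
Log2 fold change of each factor against vehicle (horizontal axis) with its SE as a bar, by hours after the last dose, with filled points for an adjusted p under 0.05. The 6 h point is the rightmost for 8 of the 10 factors, all except Ldb1 and Bcl11a, and filled for 6, with Gata1 farthest to the right at 1.72.

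Direct tests between collection times called none of the 10 factors. For 6 h against 1 h, where 0.493% of all genes passed, 7 factors had an unadjusted p under 0.05, which 20.7% of all genes reached. The same 7 had all 3 of their 6 h libraries above all 3 at 1 h, as 18.1% of genes did. Their log2 differences were 1.13 for Zfpm1 (SE 0.26), 0.90 for Nfe2 (0.19), 0.87 for Gata1 (0.20), 0.83 for Lmo2 (0.27), 0.75 for Gata2 (0.23), 0.65 for Tal1 (0.17) and 0.58 for Gfi1b (0.20). Adjusted p for the 7 was 0.055 to 0.14. Scaling by library totals alone lowered the median over the 10 factors in this comparison from 0.77 to 0.34, and that of all genes to -0.43. Fitted without the 24 h libraries, 6 of them passed, but calls over all genes also rose, from 66 in the main fit to 1708. Without 24 h replicate 1 or 3, 5 and 6 passed, with 1006 and 1285 genes called. DESeq2 called 5, with 848 genes called. For 24 h against 6 h, where 1.76% of all genes passed, 5 factors had all 24 h libraries below all 6 h libraries, as 12% of genes did. The same 5 had an unadjusted p under 0.05, which 22.1% of genes reached. These were Lmo2 (-1.11, SE 0.28), Klf1 (-1.11, SE 0.47), Zfpm1 (-0.98, SE 0.26), Gata1 (-0.77, SE 0.20) and Nfe2 (-0.63, SE 0.19), with adjusted p of 0.053 to 0.19. Under library totals alone the median over the 10 factors went from -0.52 to -0.05, with 5 positive in place of 2, and calls over all genes from 68 higher and 167 lower to 2692 higher and 259 lower. Without 24 h replicate 3, the library with the highest red cell level of its group, 4 of them passed. Calls over all genes in that fit rose from 235 to 2243. DESeq2 also called 4, with 1218 genes called. Without 24 h replicate 1 or 2, without 6 h replicate 3, or with only the compared groups fitted, 0 genes passed. For 24 h against 1 h, where 0.0224% of all genes passed, 2 factors (Bcl11a and Tal1) had an unadjusted p under 0.05 in edgeR, as did 6.11% of genes, and none passed in any alternative, DESeq2 included. An F test for any difference among the 4 groups, which 3.11% of all genes passed, called Gata1 (adjusted p = 0.0028) and Nfe2 (adjusted p = 0.030). Among the 3 collection times alone, which 0.755% of genes passed, the F test called none of the 10, with the lowest adjusted p at 0.059 (Nfe2).

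Zfpm1, Klf1, Ldb1 and Bcl11a were not called at 6 h. Zfpm1, the GATA1 cofactor, stood at 60.4, 37.1 and 58.8 CPM in vehicle and 86.2, 99.8 and 60.2 CPM at 6 h (log2 fold change 0.66, 95% interval 0.10 to 1.21, adjusted p = 0.17). Its highest vehicle library lay just above its lowest 6 h library, so the groups overlapped. It stood at 36.5, 45.1 and 31.1 CPM at 1 h, where all 3 libraries were below the vehicle mean of 52.1 ± 13.0. Klf1, the globin activator, had 9 to 36 counts in a library, too few for a precise value: 2.35 ± 0.623 CPM in vehicle and 3.45 ± 1.08 at 6 h (0.55, 95% interval -0.43 to 1.53). Ldb1, which joins complexes, had means of 10.8 ± 1.38 CPM in vehicle, 10.3 ± 0.988 at 1 h, 10.3 ± 3.74 at 6 h and 13.0 ± 3.72 at 24 h. Its log2 fold change at 6 h was -0.08 (95% interval -0.68 to 0.52). Bcl11a, the globin repressor, had 14.1 ± 3.33 CPM in vehicle, 12.1 ± 4.00 at 1 h, 14.7 ± 1.86 at 6 h and 19.8 ± 5.51 at 24 h. Its log2 fold change at 6 h was 0.06 (95% interval -0.54 to 0.67). The intervals of Ldb1 and Bcl11a leave out a doubling but not smaller changes. Under library totals alone their log2 fold changes at 6 h were -0.55 and -0.40, so the sign of Bcl11a flipped. Ldb1 shares 177 exon bases with Pprc1 on the opposite strand, and Bcl11a 316 with 4930538E20Rik, which had 1 count. Whether the counting used strand is not stated, so reads of Ldb1 and Pprc1 cannot be told apart with certainty.

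Compared per length of annotated exon, the factors kept much the same order in vehicle and at 6 h. In vehicle, Nfe2 (51.6 ± 3.98 CPM per kb, n = 3) and Lmo2 (49.2 ± 4.11) were the most abundant, with overlapping libraries. Gata1 (22.4 ± 2.76) and Tal1 (19.5 ± 1.21) came next and overlapped each other, as did Zfpm1 (14.9 ± 3.72) and Gfi1b (11.7 ± 0.532). Gata2 (4.53 ± 0.439) and Ldb1 (2.35 ± 0.299) each stood alone, and Klf1 (1.54 ± 0.407) and Bcl11a (1.07 ± 0.253) overlapped at the bottom. At 6 h Lmo2 (100.2 ± 8.07), Nfe2 (96.7 ± 3.24) and Gata1 (74.0 ± 4.73) were highest, and Gata1 no longer overlapped Tal1 (32.1 ± 2.36). The lengths count every annotated exon, which lowers the value of a gene such as Bcl11a whose exons total 13175 bases.

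In GRCm38 (GENCODE M21), Gata1 (ENSMUSG00000031162) lies on chromosome X, 7959260 to 7978071, on the minus strand, and Lmo2 (ENSMUSG00000032698) on chromosome 2, 103957986 to 103981878, on the plus strand. Nfe2 (ENSMUSG00000058794) lies on chromosome 15, 103248212 to 103258403, minus strand, and Gata2 (ENSMUSG00000015053) on chromosome 6, 88193891 to 88207032, plus strand. Tal1 (ENSMUSG00000028717) lies on chromosome 4, 115056426 to 115071755, plus strand, and Gfi1b (ENSMUSG00000026815) on chromosome 2, 28609450 to 28621982, minus strand. All are protein-coding genes, and the deposited counts are given per gene, not per transcript.

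The factors were then set against the 28 red cell genes, many of them known targets of GATA1 and KLF1. At 6 h, 16 of these 28 genes were called higher and none lower, with a median log2 fold change of 1.45, beside 0.78 for the 10 factors. Of the 12 that did not pass, some had values below those of the called factors, such as 0.63 for Alas2 and 0.42 for Fech, both of haem synthesis. Epb42, which links band 3 to the red cell skeleton, had 125 ± 24.7 CPM in vehicle and 1112 ± 127 at 6 h (3.15), and Ank1 of the membrane skeleton had 1.91 and Alad of haem synthesis 1.57. Subtracting the mean log2 CPM of the red cell genes in each library left 8 of the 10 factors with all 6 h libraries below all vehicle libraries, but 85.4% of all tested genes showed the same. Gata1 was not among the 8: its log2 ratio to the red cell mean was -2.04, -1.73 and -2.06 in vehicle and -1.68, -1.79 and -1.76 at 6 h. The mean difference for Gata1 was 0.20, and the groups overlapped (exact two-sided permutation p = 0.3). Over all tested genes the median difference was -1.58. Gata2 also overlapped, with a mean difference of -0.70, and the other 8 ranged from -0.50 (Lmo2) to -1.65 (Ldb1).

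At 24 h Gata1 was high relative to the red cell genes. In 24 h replicates 1 and 2 the red cell mean (7.22 and 7.73) was below or within the vehicle range of 7.59 to 7.95, and Gata1 was at 86.2 and 87.3 CPM, above the vehicle maximum of 59.0. Its log2 ratio to the red cell mean was -0.78, -1.28 and -1.53, above every vehicle value, as for 1.26% of all tested genes. The exact two-sided permutation test gave p = 0.1, the smallest that 3 libraries against 3 can give, and 0.3 after adjustment over 15 ratios. No other factor had all 3 libraries above vehicle on this measure at 24 h. Means were higher with overlapping libraries for Gfi1b (0.40), Bcl11a (0.30), Gata2 (0.29), Tal1 (0.24), Nfe2 (0.06) and Ldb1 (0.06). In 24 h replicate 1, where the red cell mean was lowest, each of these was also above every vehicle library. Zfpm1 was lower on average (-0.50) and overlapped. Klf1 (-0.68) and Lmo2 (-0.38) were lower in all 3 libraries, as were 6.66% of genes. At 1 h, 6 of the 10 factors were lower than vehicle by this ratio, as were 51.7% of all genes, and Gata1 overlapped (0.21).

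Of the 10 factors, Lmo2 kept the narrowest ratio to the red cell genes in treated blood. Over the 9 treated libraries its log2 ratio to their mean ran only from -1.59 to -1.30, a range of 0.29, where the other 9 factors had ranges of 1.10 (Gata1) to 3.16 (Ldb1). The 3 vehicle values of Lmo2 were all above this range, from -1.08 to -0.87. Over all 12 libraries its range was 0.72, still the narrowest of the 10. The 24 h libraries show the contrast. Lmo2 was at 57.2, 86.2 and 158 CPM in replicates 1, 2 and 3, in the order of the red cell mean, while Ldb1 was at 16.6, 13.2 and 9.22 CPM and Bcl11a at 25.6, 18.9 and 14.7 CPM, in the opposite order. Nfe2 was at 151, 157 and 251 CPM. These are descriptions of 3 libraries, with no test.

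**Figure D3:**
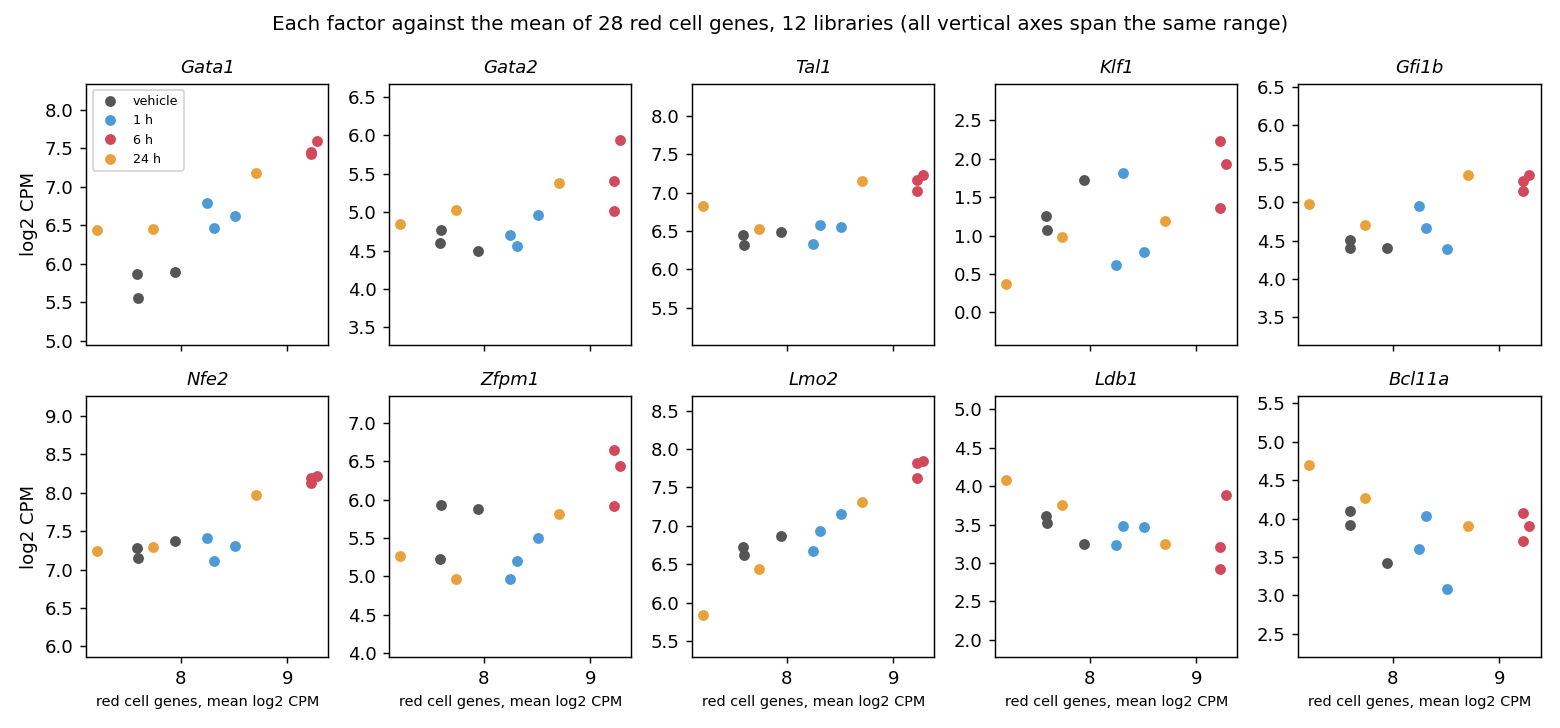
Log2 CPM of each factor (vertical axis, 3.4 log2 units in every panel) against the mean log2 CPM of 28 red cell genes (horizontal axis), with 1 point per library, coloured by group. Lmo2 climbs along a narrow band, Ldb1 does not climb, and the treated points of Gata1, 24 h included, lie above the 3 vehicle points.

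Ratios between pairs of related genes need no scaling between libraries. Gata1 over Gata2 had log2 ratios of 0.79, 1.26 and 1.40 in vehicle. The ratios were 1.90, 1.66 and 2.08 in the 1 h libraries, 1.66, 2.02 and 2.45 in the 6 h libraries, and 1.59, 1.43 and 1.80 in those of 24 h. All 9 treated libraries were above all 3 vehicle libraries, with group means 0.73, 0.90 and 0.46 above vehicle. Zfpm1 over Gata1 had 0.37, -0.64 and -0.01 in vehicle, and from -1.81 to -0.78 in the 9 treated libraries. Every treated library was below every vehicle library for this pair of cofactor and factor, with group means lower by 1.31 at 1 h, 1.07 at 6 h and 1.25 at 24 h. Both of these pairs hold Gata1, which was itself above vehicle in all 9 treated libraries. Their separation is therefore not independent of the rise of Gata1. Tal1 over Lyl1, its close relative, had 1.22, 1.46 and 1.44 in vehicle and 2.51, 2.47 and 2.46 at 6 h. Here the 6 h libraries were close together and 1.11 above vehicle on average. Lmo2 over Ldb1 was 3.10, 3.11 and 3.61 in vehicle and 3.96, 4.41 and 4.89 at 6 h, 1.15 higher on average, while at 24 h it ran from 1.76 to 4.07 and overlapped. Tal1 and Lmo2 were themselves called higher at 6 h, while Lyl1 (-0.39) and Ldb1 (-0.08) were not called. The separation of these pairs at 6 h is therefore not independent of the calls of Tal1 and Lmo2. Gfi1b over Gfi1, its counterpart in other blood cells, was 0.64 higher at 6 h with overlapping groups. For each of the 4 pairs that did not overlap at 6 h the exact two-sided permutation p was 0.1, the smallest the design allows, and 0.125 after adjustment over the 15 ratios tested at that time. How often other pairs of genes separate in this way was not computed.

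**Figure D4:**
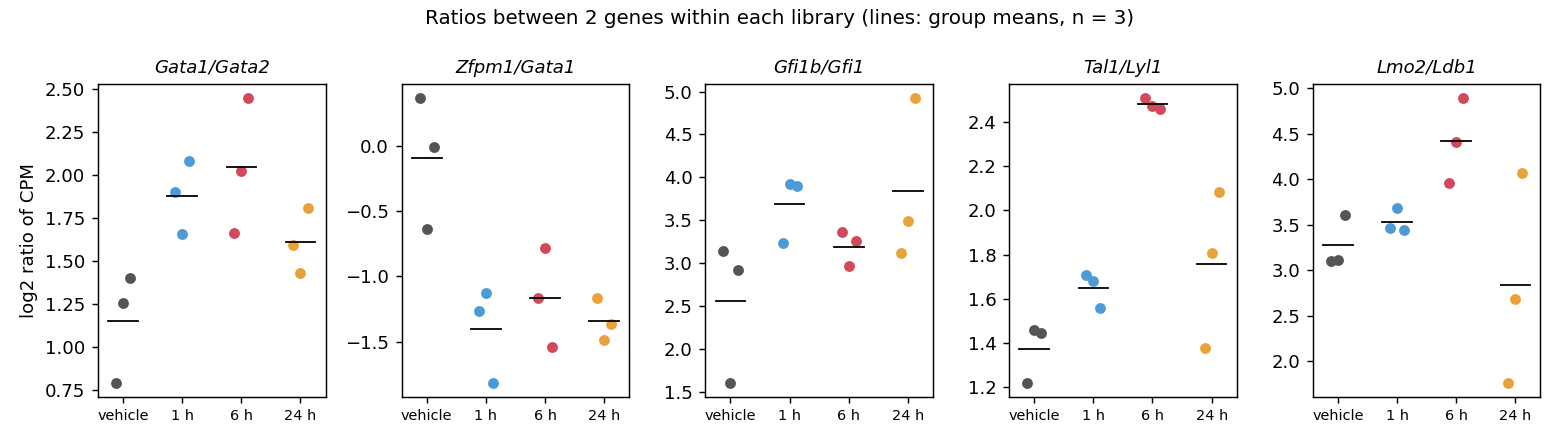
Log2 ratio of CPM between 2 genes of the same library (vertical axis, a separate range in each panel) by group, with points for libraries and lines for group means (n = 3). Gata1/Gata2 is higher and Zfpm1/Gata1 lower in all 9 treated libraries than in the 3 vehicle libraries, and Tal1/Lyl1 separates at 6 h.

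Among 12 partners of the LDB1 and TAL1 complex, 3 were called higher at 6 h and none lower, with a median of 0.13. They were Ssbp3, which stabilises LDB1 (41.7 ± 7.09 to 82.7 ± 7.86 CPM, log2 fold change 0.99, adjusted p = 0.016), and the corepressors Cbfa2t3 (23.7 ± 6.78 to 48.2 ± 13.9 CPM, 1.02, adjusted p = 0.037) and Runx1t1. Runx1t1, a relative of Cbfa2t3, had the smallest p of the list at 6 h (3.52) and was also the 1 partner called at 1 h and at 24 h. Lyl1 had -0.39 (adjusted p = 0.26). None of 13 subunits of the NuRD and CoREST corepressor complexes passed at any time in edgeR, and their median at 6 h was -0.01. At 6 h, Rbbp4, a histone-binding subunit, had the smallest p of these (0.66, adjusted p = 0.059). Of 23 other haematopoietic transcription factors tested, 1 was called at 6 h, close to the 4.84% of all genes called. It was E2f2, a cell cycle factor of maturing red cells, which rose from 201 ± 14.6 to 615 ± 47.8 CPM (1.62, adjusted p = 0.014). Klf3 (0.55, adjusted p = 0.057) and Foxo3 (0.64, adjusted p = 0.064) did not pass, nor did the myeloid factor Cebpa (-0.56, adjusted p = 0.20). The median of these 23 was 0.04.

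Several of the 10 factors are also expressed in platelets, basophils, mast cells and eosinophils. Of 18 platelet genes, 1 was called higher at 6 h (Thbs1, a secreted adhesion protein, 1.44), the median was 0.51, and 10 had all 6 h libraries above vehicle, where the shares over all genes were 4.06% called higher and 15.8% above vehicle. The summed platelet level was 3464 to 4569 CPM in vehicle, 3134 to 3977 CPM at 1 h and 4999 to 6657 CPM at 6 h. It overlapped vehicle at 1 h and was higher at 6 h, as were Gfi1b, Nfe2, Tal1 and Gata1 at 6 h. The part of platelets in the change of these factors was not tested. At 24 h none of the 18 platelet genes was called, and 6 had all libraries above vehicle, as 6.34% of all genes did. Their summed level at 24 h was 3852 to 6559 CPM, which overlapped vehicle, and its part in the 24 h values of the factors was not tested. Of 11 basophil and mast cell markers, 7 were tested and 1 was called higher at 6 h: Kit, the receptor of stem cell factor, also found on progenitors (5.26 ± 2.83 to 20.01 ± 7.65 CPM, 1.93, adjusted p = 0.020). The list's summed level was 169 to 314 CPM in vehicle and 176 to 202 CPM at 6 h. Most of that sum was Hdc, with 188 ± 87.6 CPM in vehicle and 148 ± 7.19 at 6 h (-0.34). The mast cell proteases Cpa3 (-1.05) and Cma1 (-1.29) were lower and did not pass. Ms4a2 (0.64), Cd200r3 (0.65) and Fcer1a (0.19) were higher and did not pass either, and the median of the tested markers was 0.19. The part of these cells in the change of the factors was not tested. Of 9 eosinophil markers, 4 were tested and none passed, and the summed level was 37.7 to 43.0 CPM in vehicle and 48.1 to 59.5 CPM at 6 h. The ranges did not overlap, and the part of these cells in the change of the factors was not tested. Ccr3, the eotaxin receptor, had 6.66 ± 2.10 CPM in vehicle and 14.2 ± 5.69 at 6 h, with all 6 h libraries higher (1.09, adjusted p = 0.066). The more abundant Siglecf had 20.8 ± 6.94 CPM in vehicle and 21.7 ± 8.35 at 6 h (0.07, adjusted p = 0.92). Ear2 had 12.2 ± 3.89 and 12.8 ± 2.80 CPM (0.07, adjusted p = 0.93), and Ear6 had a log2 fold change of 0.95 (adjusted p = 0.57). Prg2, an eosinophil granule protein with too few counts to test, had none in vehicle or at 1 h, 1.01 ± 0.501 CPM at 6 h and 0.693 ± 0.475 CPM at 24 h. Of 11 markers of B cells and plasmacytoid dendritic cells, which also express Bcl11a, 4 were tested and none passed. Their summed level was 13.9 to 27.0 CPM in vehicle and 13.6 to 22.4 CPM at 6 h, and the B cell marker Ms4a1 had 0 counts in all 12 libraries. Of 9 stem and progenitor markers, 6 were tested and none passed at any time in edgeR. Of 10 neutrophil markers, 1 was called at 6 h: Mmp8, a granule collagenase (1.38, adjusted p = 0.046). Others that did not pass had values of either sign, with 1.57 for Retnlg, -0.997 for Ltf and -0.52 for Csf3r, and the median was 0.18. The summed neutrophil level was 5207 to 10153 CPM in vehicle and 6976 to 12273 CPM at 6 h, so the groups overlapped.

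**Figure D5:**
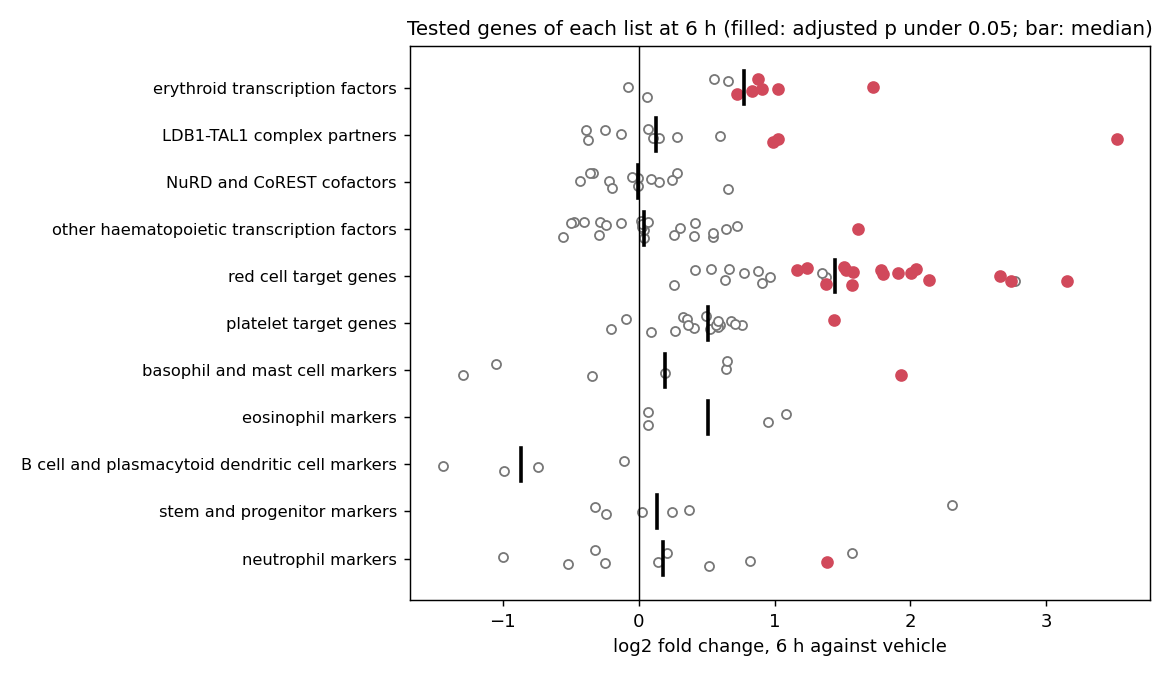
Log2 fold change at 6 h against vehicle (horizontal axis) of the tested genes of each list, with filled points for an adjusted p under 0.05 and a bar at the median. The 10 erythroid transcription factors have a median of 0.78, between the 28 red cell genes at 1.45 and the corepressor subunits at -0.01.

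For each factor, the tested genes most like it in pattern were found as those with the smallest root mean square difference in centred log2 CPM over the 12 libraries, which share their depth and scaling. Lmo2 had the closest matches, with Gabarapl2 differing by 0.076 log2 units and Ube2r2 by 0.10. Tal1 was nearest to Prkab1 (0.10), Eef2 (0.13) and Lpin2 (0.15), and Nfe2 was near Atp6v1f (0.12) and Rpl19 (0.12). Gata1 was nearest to Tmem86b and Azin1, each at 0.20. The standard deviation over the libraries was 0.67 for Gata1 and 0.34 for Tal1, and the differences were not scaled by it. Gata2 was nearest to Zwint (0.14), Mfsd2b (0.18) and Nck2 (0.18), and Gfi1b to Ecm1, Amd1 and Prkca, each at 0.17. The nearest genes of Zfpm1 were Nfix (0.24), Fads1 (0.25) and Setd3 (0.25), while Klf1, Ldb1 and Bcl11a had nearest genes at 0.24 (Trim21), 0.18 (Wdr83os) and 0.21 (Atxn7).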

How the data were processed

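Whole-blood RNA from 12 mouse libraries was extracted with a PAXgene blood kit, depleted of ribosomal RNA and sequenced as paired ends, per the labels' protocols. The authors deposited raw counts per Ensembl gene as whole numbers, not scaled to library size. RSEM is named without a version in the submitters' processing notes, so the counts may be rounded estimates, and those notes list hg38 although the identifiers are mouse. Aligner, annotation and strand are not stated.

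R 4.3.3 was used with edgeR 4.0.16, with DESeq2 1.42.0 and limma 3.58.1 for alternatives. Genes passing filterByExpr by group were scaled by TMM and fitted by quasi-likelihood with 4 group means over all 12 libraries. Adjustment was by Benjamini-Hochberg over 13384 genes, with a threshold of 0.05. An SE is the log2 fold change divided by the square root of its F. Log2 CPM used a prior count of 2. Ratios within a library were compared by exact permutation of 3 libraries against 3. Intervals on fold changes are 95%. The procedure was tested on simulated data.

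The members and gene lists were chosen with earlier results of these data known. All 10 members were named, up to 4 genes a list with the smallest p at 6 h, and the 3 genes nearest in pattern to each member among named genes with a mean log2 CPM of at least 3. Genes named beyond this rule, such as those called among few, were chosen after their values were seen. Alternatives were a block for the replicate number, DESeq2 size factors, library totals alone, no filter, 5 CPM in 3 libraries, the tests of DESeq2 and limma-voom, a fit of only the compared groups, and fits that left out each library or, added after seeing the data, the 24 h libraries. No 2 libraries of a group agreed within sampling noise. A few genes that these rules name are not reported here.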

Additional observations from a re-analysis of the deposited data

Results flagged for a closer look

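Zfpm1 stood out because its 3 libraries at 1 h were all below the vehicle mean and its 3 libraries at 6 h all above it. The mean at 6 h was 1.13 log2 units above that at 1 h (SE 0.26), and the direct test of 6 h against 1 h in edgeR gave an adjusted p of 0.071, which did not pass. Against vehicle its log2 fold change was -0.47 at 1 h and 0.66 at 6 h, neither of which passed.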

How the results depend on the processing

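Of the 10 factors, 6 were called at 6 h against vehicle. The count was 1 with library totals alone and ran from 1 to 6 with 1 library left out in turn. At 1 h it was 0, but 1 (Gata1) with library totals alone, no filter, DESeq2, only the groups compared or without the 24 h libraries, and 0 to 1 with a library left out. At 24 h it was 0, but 1 (Gata1) with library totals alone, no filter or DESeq2, and 0 to 1 with a library left out. For the mean of the 3 times it was 1, and 0 to 1 with a library left out. For 6 h against 1 h it was 0, but 6 with no filter, 5 with DESeq2, 5 with only the groups compared, 6 without the 24 h libraries, 1 with the 5 CPM filter, limma-voom or the replicate block, and 0 to 6 with a library left out. For 24 h against 6 h it was 0, but 1 with library totals alone, 4 with no filter, DESeq2 or limma-voom, 2 with the 5 CPM filter or the replicate block, and 0 to 4 with a library left out. It stayed at 0 for 24 h against 1 h in all 20 alternatives. Calls over all genes varied between settings too, against vehicle from 7 to 288 at 1 h, 239 to 1832 at 6 h and 1 to 237 at 24 h. They ran from 4 to 1720 for 6 h against 1 h and from 0 to 2951 for 24 h against 6 h. The cause of these differences was not tested. Of the 15 ratios, 12 had groups that did not overlap at 6 h, and this count stayed within 1.5 times in all alternatives tried. Of the 12, 8 were ratios to the red cell mean, all lower, as were 85.4% of all tested genes. No such share was computed for the pairs of genes. Replicate numbers showed no clear pairing of libraries from different groups. Deviations were correlated over 0.1 in 2 of 18 same-numbered pairs and in 6 of 36 pairs with different numbers. Of the 12 libraries, 6 matched their own number best. With deviations taken within groups of 3 libraries, this check cannot exclude a pairing. With the replicate block 5 of the factors were called at 6 h. No called factor changed sign. A fit of only the compared groups was not run for the mean of the 3 times, which uses every group. Klf1, with 9 to 36 counts a library, is limited by depth.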
